A study of Mus musculus with 11 samples.

Results

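Interferon-stimulated genes are the transcripts that cells raise after sensing type I interferon, and 44 of them were compared here between tumor-associated and splenic macrophages of tumor-bearing mice. The members were taken by gene name from the table of the site comparison, where all 44 were found among 35597 genes, and all 44 were among the 14239 genes with enough reads to be tested. They include the Ifit, Oas, Mx, Ifitm, Parp and Slfn subfamilies, the signalling genes of the pathway, the ISG15 system and further antiviral effectors. The tumor group (WT_TAM, 4 libraries) was F4/80+ CD11b+ macrophages, negative for Ly6G and Ly6C and positive for CD45, sorted from subcutaneous Lewis lung carcinoma (LLC), a transplantable mouse lung tumor line. The splenic group (WT_SP, 3 libraries) was CD45+ F4/80+ macrophages with low CD11b, sorted without Ly6G, Ly6C or TCRβ. Both groups came from C57BL/6 mice aged 6 to 8 weeks that carried floxed Sin1 alleles (Sin1fl/fl) and no Cre, and that had received 500000 LLC cells 14 days earlier, so the spleens are those of tumor-bearing animals and no tumor-free group was used here. Whether the libraries come from separate mice is not stated in the labels, so a p-value here speaks only of spread between libraries, part or all of which could be technical.

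Type I interferons, the interferon alpha proteins and interferon beta, bind the receptor made of IFNAR1 and IFNAR2. The kinases JAK1 and TYK2 then phosphorylate STAT proteins, STAT2 among them, which join IRF9 in the complex ISGF3 and bind the interferon-stimulated response element (ISRE) in the promoters of the target genes. The products block viral entry, translation, replication and release, and some of them raise or damp the signal itself. Macrophages both make and answer type I interferon, and many interferon-stimulated genes have a basal level without infection.

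Recovered reads ranged from 7635406 to 13075279 per WT_TAM library and from 10630408 to 11812229 per WT_SP library, and levels are given as CPM, the reads of a gene per 1e+06 reads of its library, after division by the authors' size factors. The WT_TAM 4 library had the fewest reads and stood apart from the others of its group. Its weight in limma's array weights was 0.0779, against 1.06 to 1.41 for WT_TAM 1 to 3 and 1.23 to 3.08 for WT_SP. Mitochondrial reads made up 6.58% and 5.78% of WT_TAM 2 and 4 and 0.837% to 2.00% of the other libraries. All 10 macrophage markers were detected, with a summed level of 35625 to 55551 CPM in WT_TAM and 5053 to 5360 CPM in WT_SP. Of the 10, 7 were higher in WT_TAM, and Lyz2 alone averaged 30708 CPM in WT_TAM and 1796 CPM in WT_SP. Over all genes tested, 23.1% were higher and 23.6% lower, and the counts of the marker lists here are to be read beside these shares. Itgam, 1 of the 7, encodes CD11b, for which the groups were sorted differently. Its difference (242 against 13.6 CPM) is therefore no independent finding. Adgre1, which encodes F4/80, averaged 516 ± 173 CPM (SD, n = 4) in WT_TAM and 301 ± 35.01 CPM (SD, n = 3) in WT_SP. It did not pass (limma adjusted p = 0.0733), and its level in WT_TAM 4, 295 CPM, lay inside the splenic range. Red pulp macrophage markers summed to 3701 to 4153 CPM in WT_SP and 254 to 669 CPM in WT_TAM. The splenic libraries also held transcripts of other cells. B cell markers summed to 5945 to 6998 CPM in WT_SP and 18.4 to 85.7 CPM in WT_TAM (6 of 6 lower in WT_TAM), T cell markers to 846 to 920 against 68.8 to 82.9 CPM (6 of 6 lower), and neutrophil markers to 847 to 2394 against 6.12 to 30.5 CPM (7 of 7 lower, with Elane at 0 reads in every WT_TAM library). Markers of plasmacytoid dendritic cells, which are specialised producers of type I interferon, summed to 80.0 to 95.7 CPM in WT_SP and 2.65 to 6.56 CPM in WT_TAM (5 of 5 lower), and fibroblast markers to 7.49 to 44.7 against 429 to 961 CPM (5 of 5 higher). The part of these cells in the results below was not tested. In bulk RNA, fewer cells of a type and less RNA per cell cannot be told apart.

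**Figure D1:**
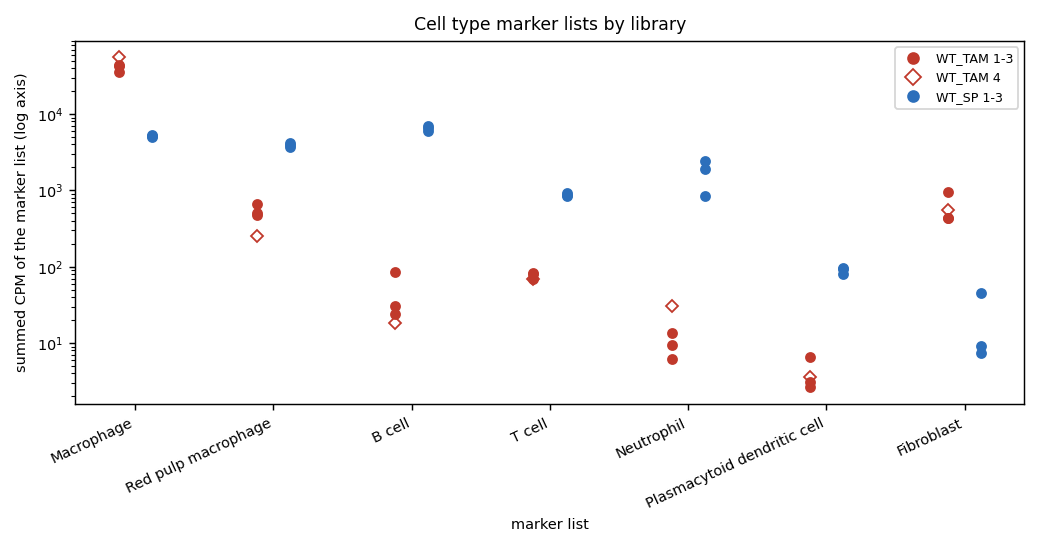
Summed CPM of cell type marker lists (log axis) in each library, with WT_TAM 4 as an open diamond. B cell, T cell, neutrophil and plasmacytoid dendritic cell sums are higher in all 3 splenic libraries than in any of the 4 tumor libraries, and macrophage and fibroblast sums are lower.

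The promoters of the 3 members most raised and the 3 most lowered in the fit of all libraries, among those with a RefSeq promoter, are shown because an ISRE is what these genes are held to share. Each line gives the 250 bases before the RefSeq start (GRCm38.p6), 5′ to 3′ on the gene's strand, with every match of the ISRE core on either strand in capitals. That core is GAAA, any 2 bases, then GAAA. The first 3 genes were higher in WT_TAM and the last 3 were lower.
Ifitm2, chr7:140955962-140956211, minus strand: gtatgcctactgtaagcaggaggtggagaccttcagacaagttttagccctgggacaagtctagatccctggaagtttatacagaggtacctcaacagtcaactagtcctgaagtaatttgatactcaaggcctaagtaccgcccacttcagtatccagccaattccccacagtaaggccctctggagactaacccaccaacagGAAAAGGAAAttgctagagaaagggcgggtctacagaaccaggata
Ifitm3, chr7:141010745-141010994, minus strand: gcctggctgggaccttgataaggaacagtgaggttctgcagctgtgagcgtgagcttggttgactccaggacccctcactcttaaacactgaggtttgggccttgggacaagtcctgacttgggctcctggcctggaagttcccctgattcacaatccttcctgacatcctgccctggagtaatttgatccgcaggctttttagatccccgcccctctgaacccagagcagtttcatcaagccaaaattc
Oas1g, chr5:120887614-120887863, minus strand: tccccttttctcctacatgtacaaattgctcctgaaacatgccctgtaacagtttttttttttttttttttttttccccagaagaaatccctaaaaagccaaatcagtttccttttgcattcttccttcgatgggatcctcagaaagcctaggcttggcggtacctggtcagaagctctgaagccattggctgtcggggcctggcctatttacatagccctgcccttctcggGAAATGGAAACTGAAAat
Sp100, chr1:85649738-85649987, plus strand: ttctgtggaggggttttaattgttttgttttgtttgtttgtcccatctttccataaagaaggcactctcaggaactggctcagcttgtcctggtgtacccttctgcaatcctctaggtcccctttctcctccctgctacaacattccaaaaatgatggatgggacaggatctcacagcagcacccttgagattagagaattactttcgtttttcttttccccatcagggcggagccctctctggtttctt
Ifit3b, chr19:34607707-34607956, plus strand: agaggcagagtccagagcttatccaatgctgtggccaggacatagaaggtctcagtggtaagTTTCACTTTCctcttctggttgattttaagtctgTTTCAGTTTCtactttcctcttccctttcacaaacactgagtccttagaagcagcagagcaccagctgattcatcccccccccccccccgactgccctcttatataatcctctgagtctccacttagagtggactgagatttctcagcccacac
Helz2, chr2:181242028-181242277, minus strand: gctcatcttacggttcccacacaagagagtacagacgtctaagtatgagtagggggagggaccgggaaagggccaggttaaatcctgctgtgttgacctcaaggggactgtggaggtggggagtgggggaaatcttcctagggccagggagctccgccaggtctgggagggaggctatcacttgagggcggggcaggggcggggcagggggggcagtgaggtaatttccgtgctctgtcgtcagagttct

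The ISRE core was present in Ifitm2, Oas1g and Ifit3b, and its letters were not found in these windows of Ifitm3, Sp100 and Helz2. In Oas1g, 2 overlapping matches lie between 3 and 18 bases before the start. In Ifit3b, 2 separate matches lie between 145 and 188 bases before it, on the opposite strand. Over all members with a RefSeq promoter in the table, 15 of 35 (42.9%) held the core in the 250 bases before any of their starts, against 936 of 27025 genes (3.46%). By call, it was found in 4 of 7 members higher in WT_TAM, 3 of 9 lower and 8 of 19 that did not pass the test. The GAS core (TTC, any 3 bases, then GAA), an element of interferon gamma target genes, was found in 5 of 35 members (14.3%) and 2197 of 27025 genes (8.13%). A match is a description of the letters, not evidence of binding.

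The interferon-stimulated genes did not move one way in the tumor. At a Benjamini-Hochberg adjusted p of 0.05 over all 14239 genes (limma), 8 of the 44 members were higher in WT_TAM (18.2%), 10 were lower (22.7%) and 26 did not pass. Over all genes tested, 23.1% were higher and 23.6% were lower, so the members' shares lie near the background. The counts of each subfamily and list below are to be read beside these shares. Their median log2 fold change (WT_TAM minus WT_SP, log2 of CPM plus 0.5) was -0.22, and that of all genes was -0.07. All 4 WT_TAM libraries lay above all 3 WT_SP libraries in 6 members (26.3% of all genes did so) and below them in 13 members (29.8% of all genes). With library totals alone as the scale, the split over all genes went from 3287 higher and 3364 lower to 2171 and 5515, the median of all genes moved to -0.51, and the members split into 4 higher and 15 lower.

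The 8 members that were higher were Ifitm2, Ifitm3, Oas1g, Oas1a, Oasl2, Bst2, Zbp1 and Trim25. The 10 that were lower were Sp100, Ifit3b, Helz2, Slfn8, Adar, Epsti1, Isg20, Irf9, Trim30a and Ly6e. Of these 18, 9 passed with the same direction under every one of the 16 alternative settings, namely Ifitm2, Ifitm3, Oas1g, Oas1a, Sp100, Helz2, Slfn8, Epsti1 and Isg20.

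**Figure D2:**
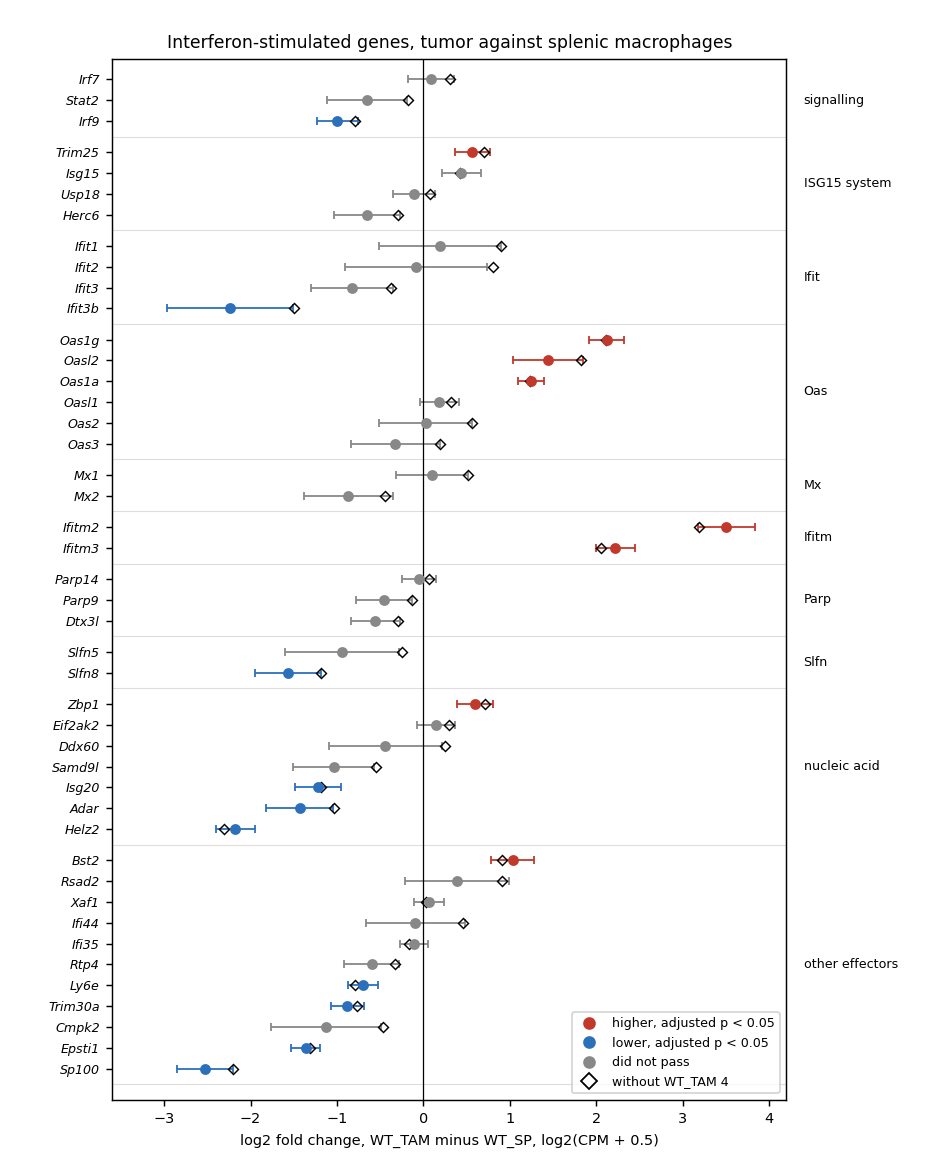
Log2 fold change of each of the 44 members (WT_TAM minus WT_SP, log2 of CPM plus 0.5), ordered within their roles, with the standard error from limma as bars and the value without the WT_TAM 4 library as open diamonds. Red marks the 8 members that were higher, blue the 10 that were lower and grey the 26 that did not pass.

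The WT_TAM 4 library stood apart in these genes too. It was the lowest of the 4 WT_TAM libraries in 33 of 44 members, against 45.6% of all genes tested, and the median log2 ratio of its level to the mean of the other 3 was -1.09 over the members and -0.16 over all genes. It was the highest of the 4 in 8 members. Without it, 13895 genes were tested, of which 32.2% were higher and 33.5% lower, and 12 members were higher and 12 lower, with a median of 0.05. All 18 calls remained. The members gained were Ifit1, Ifit2, Mx1 and Oas2 (higher) and Dtx3l and Samd9l (lower).

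**Figure D3:**
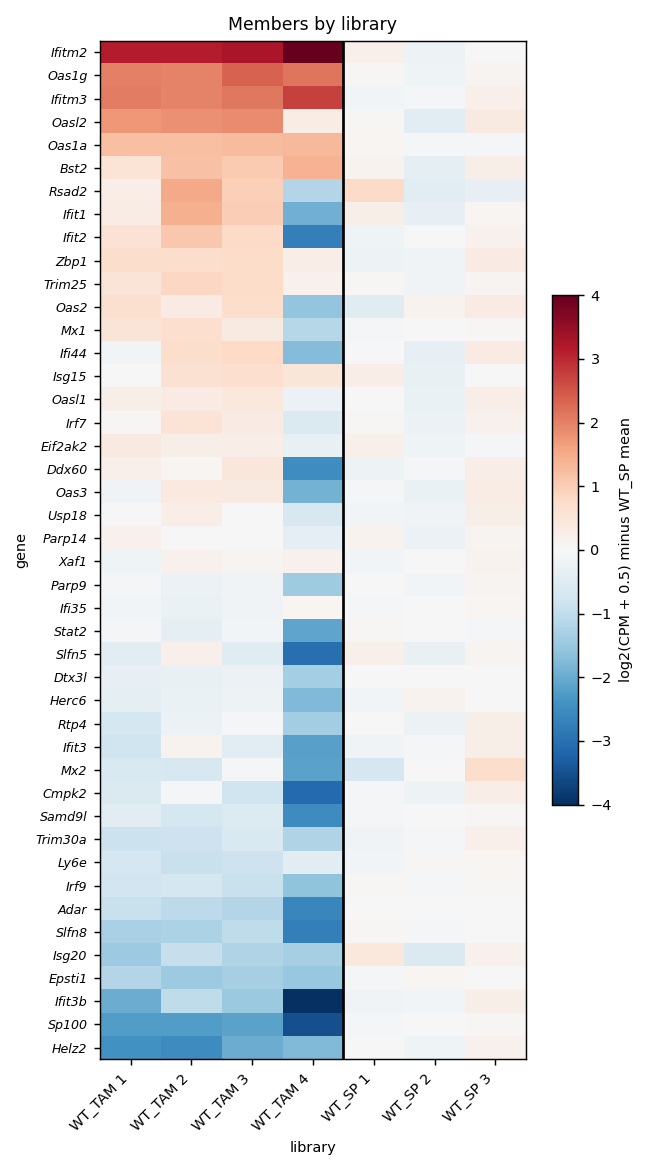
Level of each member in each library as log2 of CPM plus 0.5 minus the WT_SP mean of that gene (colour scale from -4 to 4), with members ordered by the WT_TAM 1 to 3 values. The WT_TAM 4 column is bluer than WT_TAM 1 to 3 in most rows and redder in Ifitm2, Ifitm3, Bst2 and Helz2.

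The Ifitm proteins, small membrane proteins that block fusion of enveloped viruses with endosomes, showed the largest rise of the 6 subfamilies. Ifitm2 (ENSMUSG00000060591, chromosome 7, 140954837 to 140955987, minus strand, GENCODE M21 on GRCm38) measured 958, 949, 1039 and 2352 CPM in WT_TAM 1 to 4 and 123, 93.8 and 107 CPM in WT_SP 1 to 3. Ifitm3 (ENSMUSG00000025492, chromosome 7, 141009586 to 141010770, minus strand) measured 870, 831, 898 and 1381 CPM in WT_TAM and 192, 196 and 240 CPM in WT_SP. The groups did not overlap for either gene, and WT_TAM 4 was the highest library of both. The mean of Ifitm2 was 12.3 times that of WT_SP, and its log2 fold change was 3.50 ± 0.33 (SE; adjusted p = 4.77e-05, limma). For Ifitm3 the ratio was 4.76 and the log2 fold change 2.22 ± 0.22 (SE, limma adjusted p = 6.76e-05). Without WT_TAM 4 the log2 fold changes were 3.19 and 2.06. The sum of both genes was 2320 ± 944 CPM (SD, n = 4) against 317 ± 28.9 CPM (SD, n = 3). Ifitm2 shares 97.0% of 432 bases of its transcript with the gene model Gm11951 and Ifitm3 shares 91.6% of 356 bases with Gm6885, so part of their reads could have been assigned elsewhere. Of 3 tested relatives outside the 44, Ifitm1 was higher, at 230 ± 111 CPM against 18.6 ± 4.53 CPM (log2 fold change 3.49, limma adjusted p = 8.74e-05), while Ifitm10 (-2.31, adjusted p = 8.65e-05) and Ifitm6 (-1.93, adjusted p = 0.000382) were lower.

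The products of the Oas genes sense double-stranded RNA and, in the catalytic forms, make the 2-5A signal that activates RNase L. Of the 6 members, 3 were higher and none was lower, beside 23.1% and 23.6% of all genes. Oas1a (ENSMUSG00000052776, chromosome 5, 120896256 to 120907521, minus strand) measured 85.9, 86.1, 89.1 and 90.5 CPM in WT_TAM 1 to 4 and 39.2, 35.8 and 35.5 CPM in WT_SP 1 to 3. Its neighbour Oas1g (ENSMUSG00000066861, 120876142 to 120887613, minus strand) measured 17.4, 17.3, 22.4 and 19.0 CPM against 4.16, 3.47 and 4.33 CPM. These were the steadiest of the raised members, with WT_TAM 4 among the others of its group. The log2 fold change of Oas1a was 1.24 ± 0.15 (SE, limma adjusted p = 0.000187) and that of Oas1g 2.12 ± 0.21 (SE, limma adjusted p = 5.29e-05). The 2 transcripts are 97.6% identical over 1861 bases, so the split of reads between them is uncertain. Their sum was 107 ± 4.19 CPM (SD, n = 4) against 40.8 ± 2.21 CPM (SD, n = 3), a ratio of 2.62. An exchange of reads between these genes leaves the sum unchanged, but any reads assigned to neither are missing from it. Oasl2, an Oas-like gene, measured 112, 120, 126 and 41.0 CPM in WT_TAM and 34.7, 24.8 and 43.3 CPM in WT_SP, so that WT_TAM 4 lay inside the splenic range. Its log2 fold change was 1.44 ± 0.40 (SE, limma adjusted p = 0.018). The call was lost with library totals alone (0.97, adjusted p = 0.0897) and without WT_TAM 2 (adjusted p = 0.0502), WT_SP 1 (adjusted p = 0.0548) or WT_SP 2 (adjusted p = 0.0799).

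The other Oas members did not pass. Oas2 measured 25.2, 20.4, 26.6 and 5.08 CPM in WT_TAM and 11.3, 17.9 and 20.5 CPM in WT_SP. Oas3 measured 36.9, 53.8, 52.8 and 10.8 CPM in WT_TAM and 39.9, 34.2 and 51.1 CPM in WT_SP. In both genes the lowest library of all 7 was WT_TAM 4. Oasl1, which restrains translation of Irf7, measured 28.5, 30.8, 33.0 and 20.7 CPM against 24.1, 20.4 and 29.6 CPM, with overlapping groups. Without WT_TAM 4, Oas2 passed at a log2 fold change of 0.56 (limma adjusted p = 0.040), and Oas3 (0.19, adjusted p = 0.369) and Oasl1 (0.32, adjusted p = 0.0827) did not. The 6 genes summed to 293 ± 72.9 CPM (SD, n = 4) in WT_TAM and 158 ± 24.2 CPM (SD, n = 3) in WT_SP. Their median log2 fold change was 0.71, and 0.25 with library totals alone. Of 2 tested relatives outside the 44, Oas1b (-1.06, adjusted p = 0.0055) and Oas1c (-1.08, adjusted p = 0.0358) were both lower in WT_TAM, at levels under 10 CPM. Oas1c was not called without WT_TAM 1, 2 or 3, with any 1 WT_SP library left out, with no filter or with upper quartile scaling.

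**Figure D4:**
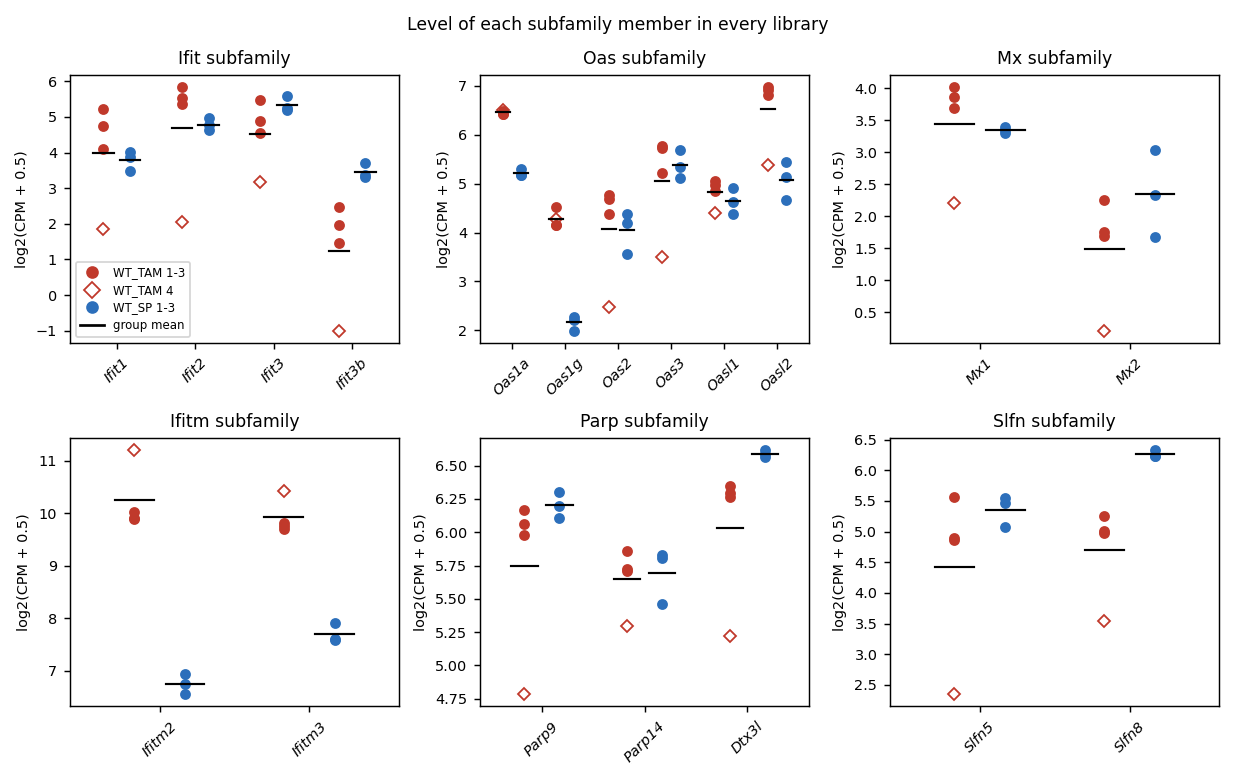
Level of each member of the Ifit, Oas, Mx, Ifitm, Parp and Slfn subfamilies in every library (log2 of CPM plus 0.5), with group means as bars and WT_TAM 4 as an open diamond. The tumor and splenic libraries separate for Ifitm2, Ifitm3, Oas1a and Oas1g (tumor higher) and for Ifit3b, Dtx3l and Slfn8 (tumor lower), and WT_TAM 4 is far below its group in the Ifit genes.

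The Ifit proteins bind foreign RNA ends and slow translation, and their genes lie side by side on chromosome 19 between 34550694 and 34650009. None of the 4 was higher and 1 was lower. Ifit1 measured 16.6, 36.6, 26.6 and 3.12 CPM in WT_TAM 1 to 4 and 15.7, 10.6 and 14.2 CPM in WT_SP 1 to 3. For Ifit2 the levels were 40.8, 57.1, 45.8 and 3.61 CPM in WT_TAM against 24.1, 26.6 and 30.7 CPM in WT_SP. In both genes WT_TAM 1 to 3 lay above every splenic library and WT_TAM 4 lay below every one. Their log2 fold changes over all libraries were 0.19 ± 0.70 and -0.09 ± 0.82 (SE), and without WT_TAM 4 they were 0.90 (limma adjusted p = 0.0139) and 0.80 (limma adjusted p = 0.00074). Ifit3 measured 23.0, 44.2, 29.0 and 8.53 CPM in WT_TAM and 36.1, 37.8 and 47.7 CPM in WT_SP, with overlapping groups (-0.83 ± 0.47, SE, limma adjusted p = 0.186). Ifit3b measured 2.28, 5.00, 3.41 and 0 CPM in WT_TAM and 9.52, 9.80 and 12.5 CPM in WT_SP. The 0 in WT_TAM 4 allows a level of up to 0.492 CPM, the worth of 3 reads there. Ifit3b was the lowered member of the family (-2.24 ± 0.73, SE, limma adjusted p = 0.0331), and -1.50 without WT_TAM 4 (limma adjusted p = 0.000646). The call was lost with a pseudocount of 0.1 CPM (adjusted p = 0.0823), on the deposited values as they stand (adjusted p = 0.095), without WT_TAM 1 (adjusted p = 0.0558) and with any 1 WT_SP library left out (adjusted p = 0.0821 to 0.103).

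Ifit3 and Ifit3b are 97.8% identical over 1700 bases, so their reads may be split unevenly. Their sum was 28.8 ± 16.9 CPM (SD, n = 4) against 51.2 ± 7.95 CPM (SD, n = 3), and 35.6 CPM without WT_TAM 4. The sum of all 4 Ifit genes was 86.4 ± 53.6 CPM in WT_TAM and 91.8 ± 11.6 CPM in WT_SP, with WT_TAM 1 to 3 at 82.7, 143 and 105 CPM and WT_TAM 4 at 15.2 CPM. Of the relatives outside the 44, Ifit1bl1 (6.79 ± 4.346 against 24.4 ± 3.45 CPM, log2 fold change -2.01, limma adjusted p = 0.0114) and Ifit1bl2 (-1.51, limma adjusted p = 0.00341) were lower.

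The Mx proteins are dynamin-like GTPases that trap viral components, and neither gene passed. Mx1 measured 14.1, 15.8, 12.4 and 4.10 CPM in WT_TAM and 9.30, 9.65 and 10.0 CPM in WT_SP. Again WT_TAM 1 to 3 lay above and WT_TAM 4 below the splenic range. The log2 fold change of Mx1 was 0.10 ± 0.42 (SE), and 0.52 without WT_TAM 4 (limma adjusted p = 0.0196). Mx2 measured 2.87, 2.74, 4.28 and 0.656 CPM in WT_TAM and 2.68, 4.55 and 7.70 CPM in WT_SP, with overlapping groups (-0.87 ± 0.52, SE, limma adjusted p = 0.202). The 2 transcripts are 94.8% identical over 920 bases, and their sum was 14.2 ± 6.37 against 14.6 ± 2.91 CPM.

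Parp9 and Parp14 are ADP-ribosyltransferases, and Dtx3l is the ubiquitin ligase that partners Parp9, its neighbour on chromosome 16. None of the 3 passed. Parp9 measured 71.4, 62.5, 66.2 and 27.0 CPM in WT_TAM and 73.0, 68.4 and 78.4 CPM in WT_SP. Dtx3l measured 76.5, 78.0, 80.8 and 36.9 CPM in WT_TAM and 95.9, 94.1 and 97.6 CPM in WT_SP, so that every tumor library was below every splenic one. Parp14 measured 57.7, 52.2, 51.8 and 38.9 CPM in WT_TAM and 56.2, 43.5 and 55.4 CPM in WT_SP, with overlapping groups. The log2 fold change of Dtx3l was -0.56 ± 0.28 (SE, limma adjusted p = 0.138), and -0.29 without WT_TAM 4, where it passed (limma adjusted p = 0.0125). Parp9 stood at -0.45 ± 0.33 and Parp14 at -0.05 ± 0.20 (SE). The sum of the 3 was 175 ± 48.4 CPM (SD, n = 4) against 221 ± 13.2 CPM (SD, n = 3). Of 10 tested Parp genes outside the 44, 2 were higher, Parp12 (28.9 ± 13.7 against 9.62 ± 4.01 CPM, 1.51, limma adjusted p = 0.0188) and Parp3 (0.77, limma adjusted p = 0.0063), and 2 were lower, Parp1, the DNA damage sensor (96.3 ± 14.7 against 223 ± 6.64 CPM, -1.22, limma adjusted p = 0.000619), and Parp11 (-1.20, limma adjusted p = 0.00817). The calls of Parp12 and Parp3 were lost with library totals alone, and that of Parp12 also without WT_SP 2. Without WT_TAM 4, 3 of the 10 were higher and 5 lower, beside 32.2% and 33.5% of all genes. With library totals alone 0 were higher and 6 lower, a setting in which most called genes were lower.

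The Schlafen genes Slfn5 and Slfn8 have roles in growth arrest of immune cells and in viral restriction. Slfn8 measured 31.2, 31.8, 37.7 and 11.2 CPM in WT_TAM and 79.9, 74.9 and 75.2 CPM in WT_SP. The groups did not overlap, and Slfn8 was lower in WT_TAM (-1.57 ± 0.38, SE, limma adjusted p = 0.00939). Slfn5 measured 29.4, 46.6, 28.7 and 4.59 CPM in WT_TAM and 46.3, 33.2 and 43.5 CPM in WT_SP, overlapped, and did not pass (-0.94 ± 0.67, SE, limma adjusted p = 0.277). Slfn8 is 92.0% identical to Slfn9 over 3857 bases, and Slfn9 was higher in WT_TAM (13.2 ± 5.07 against 5.51 ± 1.94 CPM, 1.17, limma adjusted p = 0.030). The sum of this pair was 41.2 ± 16.4 CPM against 82.1 ± 3.62 CPM, a ratio of 0.501, and 0.594 without WT_TAM 4. Slfn9 was not called with library totals alone or without WT_TAM 1, 2 or 3 or WT_SP 1 or 2. Of the 7 tested Slfn genes outside the 44, Slfn14 was lower (-2.66, limma adjusted p = 0.00385), on 4 reads in WT_TAM and 192 in WT_SP, of which WT_SP 1 held most (10.01, 2.55 and 1.25 CPM), and its fold change ran from -4.59 to -1.42 over the settings. Erythroid markers summed to 791 to 3861 CPM in WT_SP and 148 to 632 CPM in WT_TAM, and their part in Slfn14 was not tested. Slfn2 did not pass (326 ± 54.6 against 414 ± 32.4 CPM).

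Among the signalling members, Irf9, the DNA-binding subunit of ISGF3, was lower in the tumor. It measured 76.3, 78.6, 69.1 and 42.5 CPM in WT_TAM and 133, 121 and 135 CPM in WT_SP, with no overlap (-0.995 ± 0.24, SE, limma adjusted p = 0.00814). On the deposited values as they stand its adjusted p was 0.0565. Stat2, its partner, measured 85.0, 67.6, 82.4 and 20.2 CPM in WT_TAM and 91.8, 87.8 and 84.8 CPM in WT_SP, with overlapping groups and WT_TAM 4 the lowest (-0.66 ± 0.46, SE, limma adjusted p = 0.277). Irf7, the factor that amplifies interferon alpha transcription, measured 141, 199, 172 and 92.1 CPM in WT_TAM and 142, 117 and 153 CPM in WT_SP, with overlapping groups (0.09 ± 0.27, SE, limma adjusted p = 0.81).

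In the ISG15 system, Isg15, the ubiquitin-like modifier itself, measured 20.4, 31.3, 32.5 and 28.5 CPM in WT_TAM and 24.5, 16.4 and 20.7 CPM in WT_SP (0.44 ± 0.23, SE, limma adjusted p = 0.15). Its transcript shares 95.2% of 482 bases with another gene model, so part of its reads could have been assigned elsewhere. Usp18, which removes ISG15 and damps the interferon receptor, measured 29.98, 36.3, 29.99 and 19.2 CPM in WT_TAM and 28.1, 27.8 and 35.8 CPM in WT_SP, with overlapping groups (-0.11 ± 0.24, SE, limma adjusted p = 0.742). Trim25, a ubiquitin ligase that activates RIG-I, was higher, at 131, 161, 151 and 102 CPM in WT_TAM against 93.9, 81.6 and 96.6 CPM in WT_SP. The groups did not overlap. This call was narrow (0.57 ± 0.20, SE, limma adjusted p = 0.0447), and it was lost in 9 of 16 settings, including library totals alone (0.09, adjusted p = 0.75) and leaving out any 1 library other than WT_TAM 4 (adjusted p = 0.0776 to 0.165). Herc6, the main ISG15 ligase of the mouse, averaged 10.6 ± 4.27 against 15.7 ± 1.56 CPM and did not pass, although every tumor library was below every splenic one (-0.66 ± 0.38, SE, limma adjusted p = 0.189). Of the conjugation enzymes outside the 44, Uba7, the activating enzyme, was lower (69.7 ± 31.2 against 164 ± 15.8 CPM, -1.37, limma adjusted p = 0.0207; not called with any 1 WT_SP library left out), and Ube2l6 did not pass (0.35, limma adjusted p = 0.245).

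Of the 7 members that sense or act on nucleic acids, 1 was higher and 3 were lower. Zbp1, a sensor of Z-form nucleic acid that can start necroptosis, measured 98.3, 97.7, 99.8 and 71.8 CPM in WT_TAM and 52.4, 54.3 and 75.6 CPM in WT_SP. WT_TAM 4 lay below the highest splenic library (0.60 ± 0.21, SE, limma adjusted p = 0.0401). The call of Zbp1 was lost in 7 of 16 settings, among them library totals alone (0.13, adjusted p = 0.665), no filter on low reads (adjusted p = 0.114) and without WT_TAM 1, 2 or 3 or WT_SP 1 or 2 (adjusted p = 0.0891 to 0.153). Helz2, a helicase and transcriptional coactivator, measured 12.9, 12.2, 17.8 and 20.7 CPM in WT_TAM and 71.5, 63.8 and 81.9 CPM in WT_SP. Adar, which edits adenosine to inosine in double-stranded RNA, measured 64.7, 57.7, 53.2 and 19.2 CPM in WT_TAM and 121, 120 and 119 CPM in WT_SP. In both genes every tumor library was below every splenic one. Helz2 was lower (-2.18 ± 0.23, SE, limma adjusted p = 9.51e-05), and so was Adar (-1.43 ± 0.39, SE, limma adjusted p = 0.0155). Adar's adjusted p was 0.052 to 0.0539 when any 1 WT_SP library was left out. Isg20, a 3′ exonuclease, was also lower, averaging 15.3 ± 2.59 against 37.4 ± 12.3 CPM (-1.22 ± 0.27, SE, limma adjusted p = 0.00547).

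The other 3 of this group did not pass. Eif2ak2 encodes PKR, the kinase that halts translation on double-stranded RNA, and averaged 20.2 ± 3.80 against 18.0 ± 2.42 CPM (0.15 ± 0.22, SE). Ddx60, a helicase, averaged 16.1 ± 9.21 against 17.3 ± 2.93 CPM, with 2.62 CPM in WT_TAM 4. Samd9l, a translation-repressing restriction factor, averaged 65.5 ± 30.8 against 118 ± 3.27 CPM, with every tumor library below every splenic one (-1.04 ± 0.47, SE, limma adjusted p = 0.10). Without WT_TAM 4 it passed at -0.55 (limma adjusted p = 0.000547).

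Of the remaining 11 effectors, 1 was higher and 4 were lower. Bst2, or tetherin, which holds budding virions at the cell surface, measured 88.4, 134, 123 and 158 CPM in WT_TAM and 66.3, 45.7 and 71.1 CPM in WT_SP. The groups did not overlap (1.03 ± 0.25, SE, limma adjusted p = 0.00858), and with library totals alone the value was 0.56 (adjusted p = 0.0718). Sp100, a scaffold protein of PML nuclear bodies, was lower. It measured 117, 118, 125 and 48.4 CPM in WT_TAM and 529, 556 and 578 CPM in WT_SP, a ratio of the means of 0.184 (-2.53 ± 0.33, SE, limma adjusted p = 0.000322). Its transcript shares 98.7% of 379 bases with Gm2619 and similar stretches with other gene models, so some of its reads could belong to these. Pml, the scaffold of the same bodies and not one of the 44, was lower too, at 39.2 ± 12.03 against 240 ± 17.4 CPM (-2.65, limma adjusted p = 8.02e-05). Epsti1, first described as a gene induced in epithelial cells by stroma, measured 43.6, 35.6, 39.1 and 34.4 CPM in WT_TAM and 93.9, 105 and 97.1 CPM in WT_SP, with no overlap (-1.36 ± 0.16, SE, limma adjusted p = 0.000189).

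Ly6e, a GPI-anchored surface protein that restricts coronavirus entry, was lower in the tumor. It measured 1826, 1582, 1660 and 2188 CPM in WT_TAM and 2699, 3003 and 3076 CPM in WT_SP, with no overlap. Its log2 fold change was -0.70 ± 0.18 (SE, limma adjusted p = 0.0109), a call lost on the deposited values as they stand (adjusted p = 0.226) and without WT_SP 2 (adjusted p = 0.0513) or WT_SP 3 (adjusted p = 0.0585). Trim30a, which restrains Toll-like receptor signalling, was lower as well, averaging 58.4 ± 9.88 against 107 ± 14.4 CPM (-0.88 ± 0.20, SE, limma adjusted p = 0.00577), and its adjusted p on the deposited values was 0.118.

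Rsad2, or viperin, an enzyme that makes a chain-terminating nucleotide, measured 41.4, 99.0, 67.1 and 14.9 CPM in WT_TAM and 59.2, 25.01 and 27.2 CPM in WT_SP. Both groups were wide and overlapped (0.39 ± 0.60, SE, limma adjusted p = 0.627). Its neighbour on chromosome 12, Cmpk2, the kinase that feeds it, averaged 22.6 ± 14.0 against 39.2 ± 6.69 CPM and did not pass (-1.12 ± 0.64, SE, limma adjusted p = 0.18). WT_TAM 2 was the highest and WT_TAM 4 the lowest tumor library of both genes. The other effectors that did not pass had log2 fold changes between -0.60 and 0.07. They were Rtp4 (39.2 ± 14.7 against 56.7 ± 8.85 CPM), Ifi35 (50.2 ± 5.13 against 54.0 ± 2.47 CPM), Ifi44 (5.74 ± 3.62 against 5.06 ± 1.22 CPM) and Xaf1 (42.9 ± 4.58 against 40.9 ± 3.61 CPM).

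Levels of different genes were compared only per length, as CPM per kilobase of the length that the authors' values imply. Ifitm2 was the highest of the 44 in WT_TAM, at 2099 CPM per kilobase, followed by Ly6e at 1626 and Ifitm3 at 1608. In WT_SP the order was Ly6e at 2623, Ifitm3 at 338, Sp100 at 266 and Ifitm2 at 171 CPM per kilobase. Sp100 ranked 3 in WT_SP and 9 in WT_TAM, at 49.0 CPM per kilobase. At the low end, Helz2 (1.59), Ifit3b (1.35) and Mx2 (1.26) were the lowest in WT_TAM, and Mx2 (2.37), Oas1g (2.34) and Ifi44 (1.77) in WT_SP. Oas1g ranked 43 of 44 in WT_SP and 29 of 44 in WT_TAM.

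**Figure D5:**
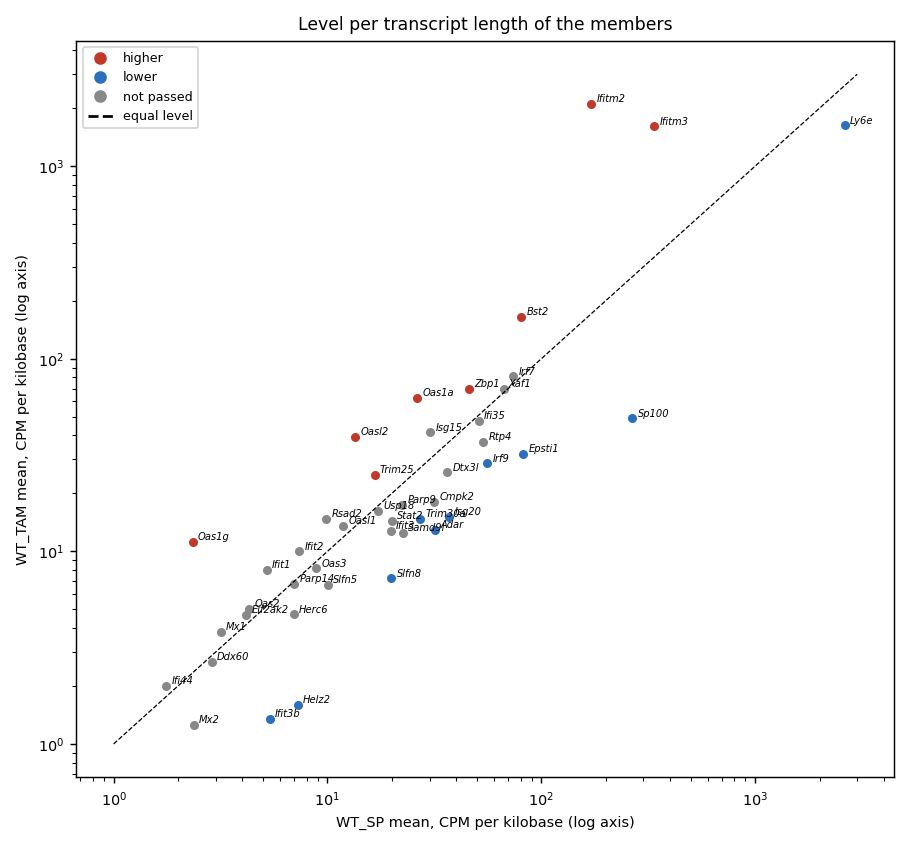
Mean level of each member per kilobase of transcript length in WT_SP (x, log axis) and WT_TAM (y, log axis), with the line of equal level. Ifitm2, Ifitm3 and Oas1g lie farthest above the line, and Sp100, Helz2 and Ifit3b farthest below it.

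Upstream of the 44, transcripts of the interferons themselves were scarce. Of 21 ligand genes listed, 15 were in the table and only Ifng, which is not a type I interferon, had enough reads to be tested (11.9 ± 4.32 against 9.87 ± 4.46 CPM, 0.29, limma adjusted p = 0.572). Ifnb1, interferon beta, measured 0, 1.67, 0 and 1.15 CPM in WT_TAM and 0, 0.154 and 0.0733 CPM in WT_SP. It rested on 24 reads in WT_TAM, all of them in WT_TAM 2 and WT_TAM 4, and on 3 reads in WT_SP, and was not tested.

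Of the 10 receptor and JAK-STAT genes, 2 were higher and 1 was lower. Ifnar2, a chain of the type I receptor, measured 133, 132, 126 and 98.5 CPM in WT_TAM and 76.8, 79.6 and 80.4 CPM in WT_SP (0.62, limma adjusted p = 0.0161). That call was lost with no filter, with library totals alone (0.15), on the deposited values and with any 1 WT_SP library left out. The other chain, Ifnar1, measured 232, 239, 207 and 76.1 CPM in WT_TAM and 87.8, 80.2 and 87.3 CPM in WT_SP, with WT_TAM 1 to 3 above and WT_TAM 4 below every splenic library. It missed the threshold with all libraries (1.01, limma adjusted p = 0.0578) and passed without WT_TAM 4 (1.40, limma adjusted p = 2.95e-07). With all libraries it also passed under no filter, upper quartile scaling, array weights and the deposited values as they stand. Ifngr2, of the interferon gamma receptor, was higher (163 ± 15.8 against 76.8 ± 4.10 CPM, 1.07, limma adjusted p = 0.000652). Jak1 was lower, at 304 ± 99.2 against 710 ± 26.7 CPM (-1.30, limma adjusted p = 0.00714). Tyk2 averaged 98.1 ± 34.2 against 125 ± 14.4 CPM and did not pass (-0.43, limma adjusted p = 0.304). Without WT_TAM 4, 5 of the 10 were higher and 1 was lower, beside 32.2% and 33.5% of all genes.

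Of the feedback inhibitors, the cytokine-induced Socs3, Cish and Socs1 were higher in the tumor. Socs3 measured 701, 852, 793 and 374 CPM in WT_TAM and 46.7, 51.5 and 56.5 CPM in WT_SP (3.64 ± 0.29, SE, limma adjusted p = 1.79e-05). Cish averaged 51.5 ± 15.9 against 7.12 ± 1.35 CPM (2.72, limma adjusted p = 0.000119), and Socs1, the member of this family that binds JAK kinases after interferon, 51.7 ± 14.0 against 14.1 ± 1.87 CPM (1.80, limma adjusted p = 0.000422). The tumor and splenic libraries did not overlap for Socs1, at 65.4, 43.4, 36.3 and 61.5 CPM against 12.9, 13.2 and 16.3 CPM. In all, 3 of 10 negative regulators were higher and 2 were lower, Ptpn6 (515 ± 104 against 793 ± 23.7 CPM, -0.65, limma adjusted p = 0.0283) and Irf2 (-0.60, limma adjusted p = 0.045). The calls of Ptpn6 and Irf2 were lost with any 1 WT_SP library left out and on the deposited values. Ptpn6 was also lost without WT_TAM 3, and Irf2 without WT_TAM 1 or 2, with no filter and with upper quartile scaling. Without WT_TAM 4 the split was 5 higher and 3 lower, beside 32.2% and 33.5% of all genes.

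Of the other IRF factors, Irf4, Irf3 and Irf8 were lower in the tumor. Irf4, a factor of lymphocytes and some macrophages, averaged 5.54 ± 2.16 against 53.8 ± 8.60 CPM (-3.25, limma adjusted p = 1e-04), and B cell markers moved the same way, as given above. Irf3 stood at -0.99 (limma adjusted p = 0.0139), and Irf8 averaged 425 ± 21.1 against 619 ± 31.4 CPM (-0.54, limma adjusted p = 0.0177). Irf5 did not pass with all libraries (411 ± 110 against 295 ± 16.1 CPM, 0.43, limma adjusted p = 0.191) and was higher without WT_TAM 4 (0.66, limma adjusted p = 6.27e-05) and with array weights. Of 13 sensors and adaptors tested, 1 was higher, Mb21d1, which encodes the DNA sensor cGAS (9.92 ± 2.62 against 3.54 ± 0.626 CPM, 1.34, limma adjusted p = 0.00341). The 3 that were lower were Tlr9 (-1.84, limma adjusted p = 0.000392), Ddx58, which encodes RIG-I (33.9 ± 14.7 against 103 ± 10.7 CPM, -1.73, limma adjusted p = 0.00737), and its adaptor Mavs (-0.74, limma adjusted p = 0.0364). Tmem173, or STING, averaged 168 ± 27.3 against 165 ± 9.91 CPM (0.02). Without WT_TAM 4, 4 of the 13 were higher and 3 lower, beside 32.2% and 33.5% of all genes. The calls of Irf3, Irf8 and Mavs were lost on the deposited values and without WT_SP 2 or WT_SP 3. Those of Irf8 and Mavs were also lost without WT_SP 1 and with no filter, and that of Mavs without WT_TAM 2 or 3.

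A list of 44 further interferon-stimulated genes held genes that moved both ways, with 8 of 39 tested higher, 13 lower and a median of -0.47, beside 23.1% higher and 23.6% lower over all genes. Without WT_TAM 4, 9 were higher and 20 lower, beside 32.2% and 33.5% of all genes. With library totals alone 5 were higher and 21 lower, a setting in which most called genes were lower. The median of the list was then -0.95, beside -0.51 for all genes. Among those higher were Apol9a (5.42 ± 2.08 against 0.192 ± 0.214 CPM, 3.07, limma adjusted p = 0.000164), Mnda, of the AIM2-like receptor cluster (41.5 ± 8.65 against 7.35 ± 1.60 CPM, 2.42, limma adjusted p = 7.18e-05), and Apol9b (2.32, limma adjusted p = 0.00139). Apol9a rested on 8 reads in WT_SP, and its fold change ran from 1.72 to 5.10 over the settings. Among those lower were Trim34a (5.36 ± 3.07 against 46.6 ± 3.11 CPM, -3.30, limma adjusted p = 0.00193), Pml and Cnp (79.2 ± 11.6 against 496 ± 19.9 CPM, -2.65, limma adjusted p = 5.7e-06). Shisa5 was lower as well, at 717 ± 135 against 2036 ± 49.1 CPM (-1.53, limma adjusted p = 0.000239). Each of these 7 kept its direction and its call under all 16 settings.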

How the data were processed

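RNA was sequenced from sorted macrophages, 4 WT_TAM and 3 WT_SP libraries; groups and replicate numbers come from the sample titles. TopHat2, HISAT2, HISAT, SAMtools, HTSeq and DESeq2 are named, with mm10, per the submitters' processing notes; the sources used here give no versions, strand setting or annotation. The values the authors deposited are decimals, negative in genes without a length, and were treated as a score. Each equals a whole number of reads divided by gene length, library total and size factor, then multiplied by 1 of the 7 libraries' factors in turn down the rows. Reads were recovered on this basis, from both of the authors' tables, in all 35597 genes of the site table, within 0.0002 reads or 1e-07 of the value. They make up 99.9% to 100.0% of each implied library total, and median-of-ratios factors computed from them match the authors' to 5.69e-11 (natural log). All numeric columns were mapped (0 left out).

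CPM used the library total times the authors' factor. The fit was by limma 3.58.1 (R 4.3.3; trend, robust empirical Bayes) on log2(CPM + 0.5). Genes needed 15 reads in all and, in 3 or more libraries, the CPM that 10 reads give in a library of median size, with no covariate, two-sided, Benjamini-Hochberg adjustment and a threshold of 0.05. The fit was also run on simulated counts with few genes changed and the same dispersion in every library. Those counts held no library like WT_TAM 4, and 46.7% of genes were called here. The simulation therefore does not vouch for the fit under these conditions. A fold change on this scale understates the change of low genes. The 16 alternatives were 2 other pseudocounts (0.1 and 2 CPM), no filter, 2 other scalings, voom, array weights, the deposited values as they stand (pseudocount 0.192), a replicate block and leaving out each library. Gene positions are from GENCODE M21 and promoters from RefSeq (GRCm38.p6), found for 35 of 44 members. Floors cover counting error only. Values after ± are the SD over libraries for CPM and the limma standard error for log2 fold changes.

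The 44 members and all lists were chosen with earlier results of these data known, so no p-value is adjusted over a list and no list test was made. Values in every library are given for the subfamilies, signalling members, Isg15 and the others that changed most or have the highest mean CPM; from other lists, up to 3 called genes per direction and the 2 with the highest mean CPM are named. KO_TAM levels were not compared here, because the genotype table holds altered values in several interferon genes. Its values, KO_TAM included, served only in setting gene lengths for the recovery of reads, where both tables gave a common length. Some genes of the lists are not reported here.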

Additional observations from a re-analysis of the deposited data

Results flagged for a closer look

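Of the 44 members checked in the 4 WT_TAM libraries, 8 had 1 library far from the other 3. That means its gap to the nearest of them, as a share of the whole range, was above Dixon's 95% critical value. For normally distributed values chance gives about 1 in 20. The share over all genes was not computed, and WT_TAM 4 stood apart over all genes too (array weight 0.0779). The count therefore cannot be read as a trait of the members. WT_TAM 4 was the far library in 7 of the 8. It was the highest in Ifitm2 (0.936) and Ifitm3 (0.878). It was the lowest in Zbp1 (0.923), Sp100 (0.904), Dtx3l (0.903), Oasl2 (0.833) and Herc6 (0.8294). In Xaf1 the far library was WT_TAM 1, the lowest (0.834).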

How the results depend on the processing

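Over the 16 alternatives, 9 of 18 called members kept call and direction in all and 0 of the 18 reversed. With library totals alone, 2171 genes were higher and 5515 lower, 4 members were higher and the Oas median was 0.25, and the all-gene median moved from -0.07 to -0.51 by construction of the scale. On the deposited values as they stand, 6 members were lower. Leaving out 1 library gave 5 to 12 members higher and 7 to 12 lower (5 higher without WT_TAM 2, WT_SP 1 or WT_SP 2, and 12 and 12 without WT_TAM 4). Without WT_TAM 4 the calls over all genes rose as well, from 23.1% higher and 23.6% lower to 32.2% and 33.5%. The shares over all genes on the deposited values and without each other library are not given here. These counts therefore cannot be read as a trait of the members. Apart from the scale, the cause of these changes was not tested. The Ifit median was -0.46, and 0.21 without WT_TAM 4; the Mx median was -0.38, and 0.04.

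The replicate block leaves WT_TAM 4 without a partner, so its fold changes equal those without that library (12 members higher, 12 lower in both); adjusted p-values and some calls of other genes differ. Whether replicate numbers pair the libraries is not known. Same-numbered deviations from the group means correlated at r = -0.00228, -0.0937 and 0.098, and different-numbered ones at -0.1 to 0.158. So few libraries cannot decide it.

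Sign changes fell in 16 members without a call. With library totals alone they were Mx1 (-0.35), Rsad2 (-0.077), Eif2ak2 (-0.32), Irf7 (-0.38), Oas2 (-0.43), Ifit1 (-0.26), Isg15 (-0.024), Xaf1 (-0.40) and Oasl1 (-0.28). With voom, Ifi44 was 0.0068 and Ifit2 0.039. With array weights, Ifi44 was 0.31, Oas3 0.057, Parp14 0.047, Ddx60 0.13, Xaf1 -0.015 and Ifit2 0.65. On the deposited values, Ifi35 was 0.072, Usp18 0.080, Parp14 0.13 and Ifit2 0.041. With the replicate block, Ifi44 was 0.46, Usp18 0.071, Oas3 0.19, Parp14 0.066, Ddx60 0.25 and Ifit2 0.80. Leaving out 1 library gave ranges of -0.092 to 0.52 (Mx1), -0.22 to 0.56 (Oas2), -0.061 to 0.31 (Irf7), -0.22 to 0.90 (Ifit1), -0.38 to 0.46 (Ifi44), -0.23 to 0.071 (Usp18), -0.56 to 0.19 (Oas3), -0.17 to 0.066 (Parp14), -0.73 to 0.25 (Ddx60) and -0.47 to 0.80 (Ifit2).

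Few reads limit Ifit3b, Mx2, Ifi44, Ifnb1, Slfn14, Apol9a and Ifit1bl2, among others; 3 reads are worth 0.211 to 0.492 CPM per library. Paralogs with near-identical transcripts may exchange reads.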
